A study of Mus musculus with 16 samples.

Results

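The response of the mouse heart to pressure overload was measured in animals that carried a control vector. Of the 16 mice sequenced, 8 were used here, chosen by their labels: 4 AAV9-GFP mice after transverse aortic constriction (TAC, replicates 1, 3, 4 and 7) and 4 AAV9-GFP mice after sham surgery (replicates 1 to 4). All 8 were male and otherwise wild-type, and all had received AAV9-cTNT-GFP, an adeno-associated virus that expresses green fluorescent protein from the chicken cardiac troponin T promoter, by subcutaneous injection on postnatal day 1. TAC ties off part of the transverse aorta, and the left ventricle then pumps against a raised pressure. The sham operation was the same without the ligature. Hearts were collected 4 weeks after surgery, and RNA from the apex was poly(A)-selected and sequenced as single-end reads of 50 bases. The age at surgery and the mouse strain are not given in the sources used here, and each sample is taken as 1 mouse. The other 8 mice of the series, which received a vector with the lncRNA Cardinal, entered the statistical fit only to estimate the spread between mice and to test whether the response to TAC differed between vectors.

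A ventricle under pressure overload is known to thicken as its cardiomyocytes enlarge. The enlarged cells are known to return to genes of the fetal heart, such as natriuretic peptides and skeletal alpha-actin. Fibroblasts become activated and lay down collagen and matricellular proteins, which are matrix proteins that signal to cells rather than bear load. The adult heart draws most of its energy from fatty acids burnt in mitochondria, and genes for that machinery, for calcium cycling and for potassium currents are among those described as falling in failing hearts.

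The 8 libraries were of nearly equal depth, from 21525012 to 21904589 counts on genes per mouse. Levels are given as CPM, counts scaled to a common library size with edgeR's TMM factors, in which 3 counts correspond to 0.126 to 0.147 CPM. A gene was called when its adjusted p was under 0.05 in edgeR's quasi-likelihood test over the 16857 genes that passed the expression filter, and it was termed well-counted at a mean of at least 5 CPM over the 8 mice (9963 genes). Cardiomyocyte markers were abundant in every heart, with a summed level of 51190 to 53860 CPM in sham hearts and 40410 to 46850 CPM in TAC hearts for 10 genes. Lymphocyte and neutrophil markers summed to 1.61 to 4.04 CPM and adipocyte markers to at most 0.900 CPM. Genes of the mitochondrial genome took a share of 32.8% to 34.0% of counts after sham surgery and of 30.4% to 31.0% after TAC, with no overlap. The TMM factors of the sham hearts, 0.940 to 0.977, lay below those of the TAC hearts, 1.05 to 1.09. In a bulk sample such as this, fewer cells of a type and less RNA per cell cannot be told apart. Cardinal itself, listed as Gm12295, had a log2 fold change of 0.033 (SE 0.53, adjusted p = 0.98).

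TAC changed the level of a broad set of genes by small amounts. Among the 16857 genes tested, 2934 (17.4%) were called, 1431 higher (8.49%) and 1503 lower (8.92%) after TAC. Among well-counted genes, 2260 of 9963 (22.7%) were called, 1029 higher (10.3%) and 1231 lower (12.4%). The median log2 fold change of these genes was 0.40 for the raised and -0.34 for the lowered genes, and 73.0% of the raised and 82.1% of the lowered genes changed by less than 1.5-fold. A change of at least 2-fold was found for 89 raised (0.893%) and 39 lowered (0.391%) well-counted genes. The 4 TAC hearts lay outside the range of the 4 sham hearts for 83.7% of the raised and 86.8% of the lowered well-counted genes, whereas 24.9% of all well-counted genes had no overlap, 11.6% upward and 13.4% downward.

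The direction of the calls differed with abundance. At a mean of 100 CPM or more, 882 genes were tested, of which 98 rose and 336 fell, whereas 504 rose and 369 fell among the 5059 genes between 5 and 20 CPM. The split also turned with the scale. With scaling by total counts in place of TMM, an alternative chosen after the data had been seen, the median log2 fold change of all genes tested moved from 0.0050 to 0.16 and the share of calls that were higher from 48.8% to 86.1%, and 34 of the 2934 genes changed sign. All changes below are relative to the bulk of genes, and where the balance of calls or the median of a list below turns with the scale, its calls on that scale are given.

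**Figure D1:**
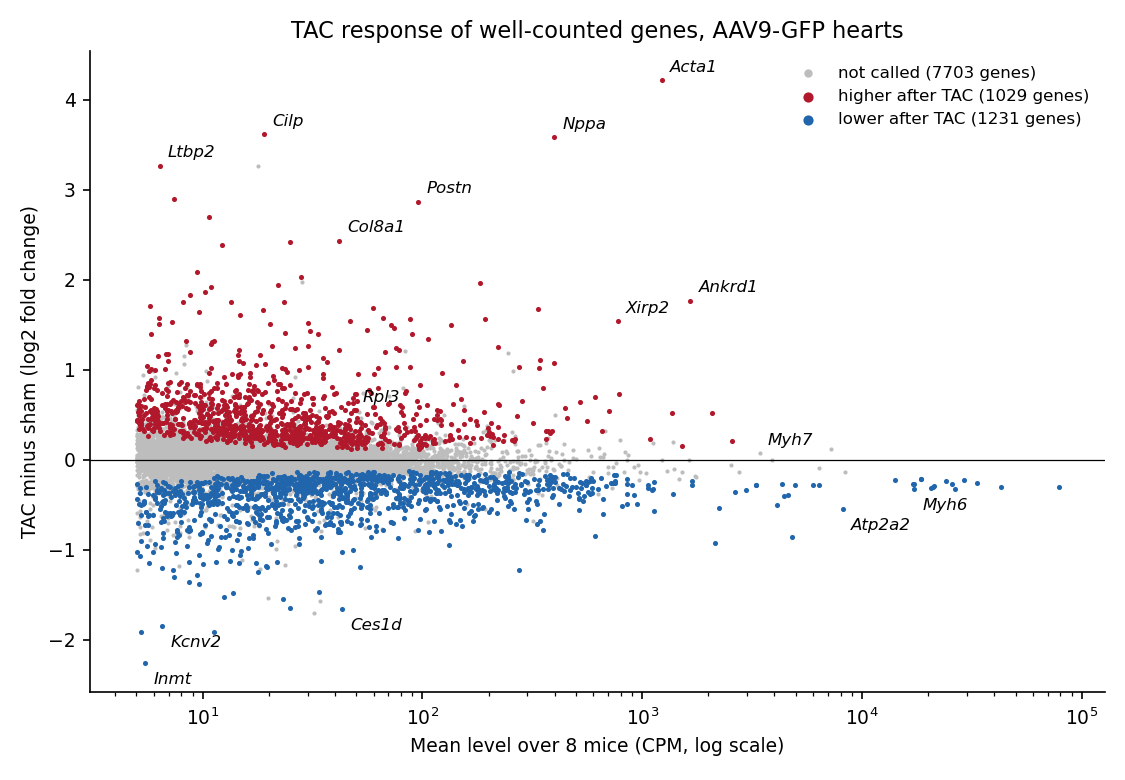
Each point is 1 of 9963 well-counted genes, with the mean level over the 8 AAV9-GFP mice in CPM on a log scale along the horizontal axis and the fitted log2 fold change of TAC against sham on the vertical axis. The 1029 raised genes (red) include Acta1 at 4.22 at the top and spread further from 0 than the 1231 lowered genes (blue), which prevail at the highest levels; grey points were not called.

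The hypertrophy and fetal-gene markers held Acta1, the well-counted gene with the largest change. Of the 19 members tested, 14 rose and 1 fell, beside 8.49% of all genes tested that rose and 8.92% that fell. Their median log2 fold change was 1.08, against 0.0050 for all genes tested. Acta1, which encodes the alpha-actin of skeletal muscle (ENSMUSG00000031972, chr8:123891769-123894751, minus strand, GRCm38), stood at 101, 153, 102 and 144 CPM in the 4 sham hearts and at 2280, 2785, 2049 and 2183 CPM in the 4 TAC hearts. Every TAC heart was well above every sham heart, and the fitted difference of 4.22 (SE 0.26, adjusted p = 8.7e-07) was larger than that of any other well-counted gene. Nppa, the gene of atrial natriuretic peptide (ENSMUSG00000041616, chr4:148000722-148002079, plus strand), was counted at 42.5, 96.1, 65.0 and 41.7 CPM in sham and 434, 1396, 431 and 675 CPM in TAC hearts. All TAC hearts were above all sham hearts, but TAC replicate 3 was far higher than the rest, and the log2 fold change was 3.58 (SE 0.44, adjusted p = 8.1e-05). Of the 50-base stretches in Nppa transcripts, 53.4% also lie in the antisense gene Gm13054, whose reads may be among its counts. Nppb, the gene of brain natriuretic peptide beside it on chromosome 4 (chr4:147985788-147987205, plus strand), was at 27.0, 68.7, 59.4 and 145 CPM after sham and 174, 394, 221 and 377 CPM after TAC. The groups lay close to each other here, since the highest sham heart reached 145 CPM and the lowest TAC heart 174 CPM, and the log2 fold change was 1.96 (SE 0.43, adjusted p = 0.0057). With the replicate number as a block in the fit, Nppb was not called (adjusted p = 0.060).

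Several further raised genes encode structural or small heat shock proteins of muscle. Ankrd1, a nuclear and sarcomeric ankyrin repeat protein of stretched muscle (chr19:36111961-36120099, minus strand), had 379, 998, 1132 and 498 CPM in sham and 2315, 3061, 1985 and 2876 CPM in TAC hearts, a log2 fold change of 1.77 (SE 0.36, adjusted p = 0.0032). Its sham values spanned a wide range without reaching the TAC values. Xirp2, an actin-binding protein of the intercalated disc, was steadier within groups, at 375, 384, 374 and 451 CPM and 978, 1249, 1021 and 1361 CPM, and rose by 1.54 on the log2 scale (adjusted p = 8e-06). Desmin (Des), the muscle intermediate filament, rose from 1122 ± 48.3 to 1604 ± 78.2 CPM (SD, n = 4), and the small heat shock proteins of muscle Hspb7 and Hspb6 rose from 1714 ± 65.4 to 2464 ± 149 CPM and from 590.1 ± 31.9 to 981 ± 39.0 CPM. These are moderate folds, of 1.43, 1.44 and 1.66, on abundant transcripts, and in none of them did the groups overlap. The single member of the hypertrophy and fetal-gene list that fell was Tnnt1, slow skeletal troponin T, at -0.48 (adjusted p = 0.038). Its groups overlapped, and the call was lost without any of 6 of the 8 mice (sham replicates 2, 3 and 4 and TAC replicates 3, 4 and 7), with an adjusted p of up to 0.12.

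The myosin heavy chains, whose switch from the alpha to the beta form is a textbook sign of hypertrophy in rodents, did not mirror each other. Myh6, the alpha form, stood at 19320, 19030, 18660 and 19790 CPM in sham and 17240, 13310, 16500 and 14270 CPM in TAC hearts, with all TAC hearts below all sham hearts and a log2 fold change of -0.32 (SE 0.068, adjusted p = 0.0042). Myh7, the beta form, stood at 3364, 3315, 3329 and 3337 CPM and 3731, 3786, 2993 and 3535 CPM. Its TAC hearts lay on both sides of the narrow sham range, and its log2 fold change of 0.074 (SE 0.060, adjusted p = 0.46) was not called. Without TAC replicate 4, the one TAC heart below the sham hearts, Myh7 was called at 0.15 with an adjusted p of 0.028. On the total-count scale, Myh7 was called higher at 0.23 (adjusted p = 0.015) and the fall of Myh6 was -0.17 (adjusted p = 0.058). Both genes share sequence: 20.2% of the stretches of 50 bases in Myh6 transcripts and 20% of those in Myh7 transcripts also lie in a transcript of another gene, mostly in each other. Mhrt, a cardiac lncRNA of the same locus (chr14:54968678-54974349, plus strand) that was chosen after its values were seen, fell from 174 ± 13.6 to 90.2 ± 31.4 CPM (log2 fold change -0.95, SE 0.18, adjusted p = 0.0019), and 26.2% of its stretches are shared with other genes, mostly with Myh7.

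**Figure D2:**
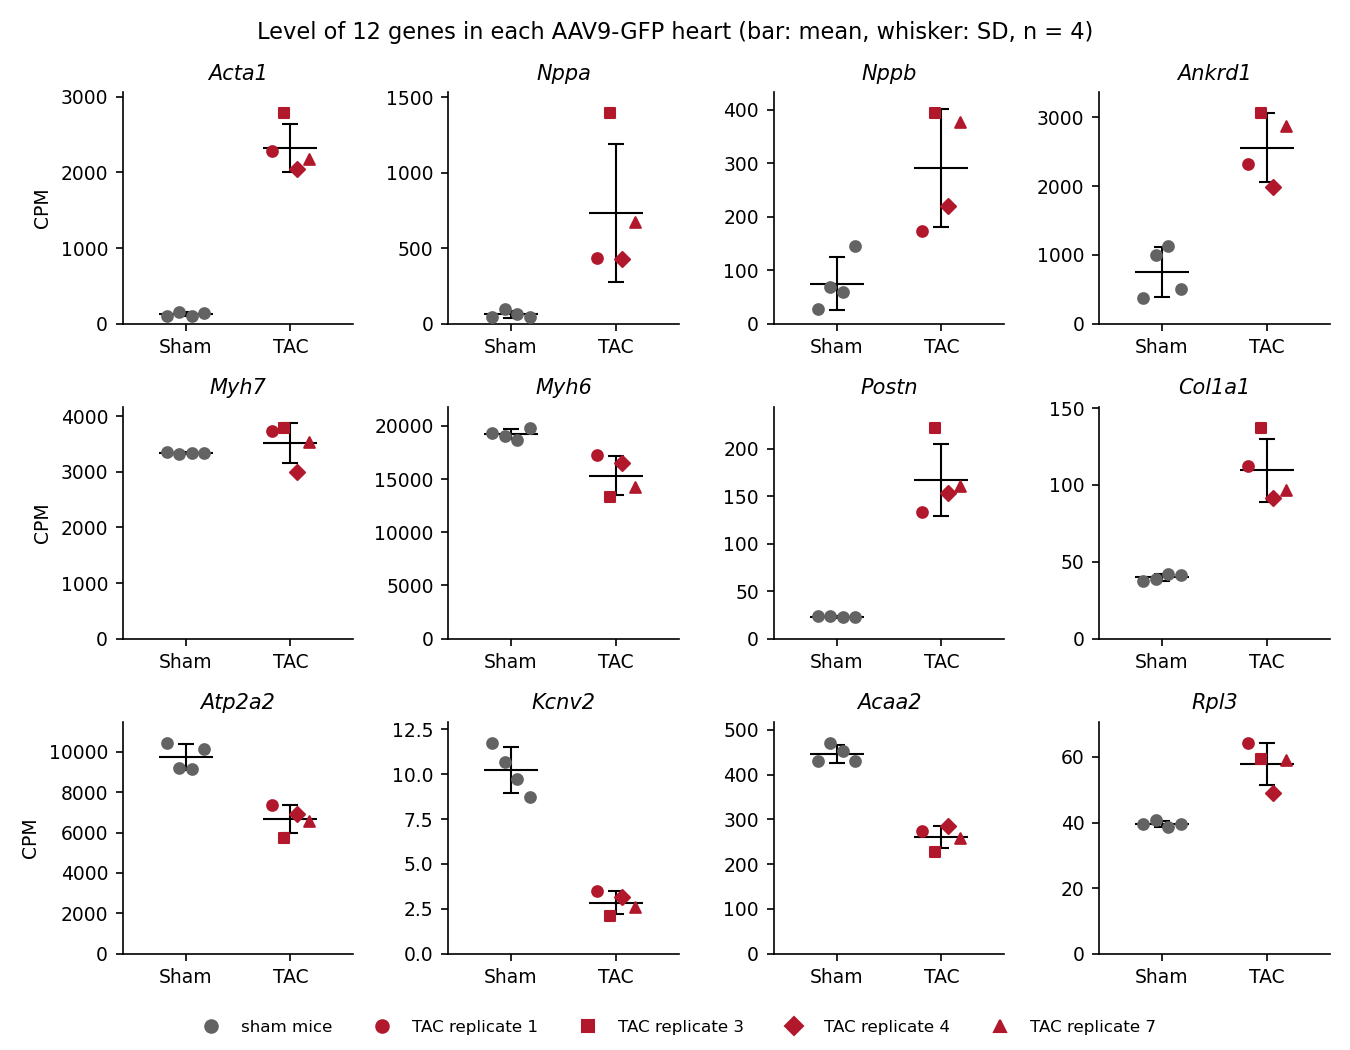
Each panel shows the level of a gene in CPM on a linear axis from 0, with a point for each of the 4 sham (grey) and 4 TAC (red, a symbol for each replicate) AAV9-GFP hearts, the mean as a bar and the SD as a whisker. The TAC hearts are clear of the sham hearts in every panel except Myh7, and TAC replicate 3 (square) is the highest TAC heart for Acta1, Nppa, Postn and Col1a1 and the lowest for Myh6, Atp2a2, Kcnv2 and Acaa2.

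The 250 bases before the transcription start of 4 of these raised genes are shown because the genes rose together and their promoters are textbook models of cardiac gene control. The sequences are from RefSeq on GRCm38.p6, 5′ to 3′ on the strand of the gene. Capitals mark the CArG box, the site class known to bind serum response factor, the MCAT element (CATTCC or its reverse complement GGAATG), known to bind TEAD factors, and the GATA element (AGATAA or TTATCT), all searched on both strands.
Acta1 (chr8:123894776-123895025, minus strand): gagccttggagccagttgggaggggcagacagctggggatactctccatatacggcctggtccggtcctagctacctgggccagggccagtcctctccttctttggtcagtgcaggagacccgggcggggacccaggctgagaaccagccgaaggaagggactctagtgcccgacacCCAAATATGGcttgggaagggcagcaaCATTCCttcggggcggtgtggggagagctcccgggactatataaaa
Nppa (chr4:148000472-148000721, plus strand): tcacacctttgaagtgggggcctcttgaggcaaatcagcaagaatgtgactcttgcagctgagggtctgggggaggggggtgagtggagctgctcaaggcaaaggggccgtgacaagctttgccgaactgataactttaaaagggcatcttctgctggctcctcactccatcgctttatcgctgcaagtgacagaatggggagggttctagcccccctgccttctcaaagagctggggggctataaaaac
Nppb (chr4:147985650-147985899, plus strand): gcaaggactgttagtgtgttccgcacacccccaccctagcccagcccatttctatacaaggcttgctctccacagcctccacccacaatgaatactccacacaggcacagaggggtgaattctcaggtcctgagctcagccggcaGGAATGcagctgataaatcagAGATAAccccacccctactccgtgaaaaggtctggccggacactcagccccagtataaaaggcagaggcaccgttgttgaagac
Ankrd1 (chr19:36119845-36120094, minus strand): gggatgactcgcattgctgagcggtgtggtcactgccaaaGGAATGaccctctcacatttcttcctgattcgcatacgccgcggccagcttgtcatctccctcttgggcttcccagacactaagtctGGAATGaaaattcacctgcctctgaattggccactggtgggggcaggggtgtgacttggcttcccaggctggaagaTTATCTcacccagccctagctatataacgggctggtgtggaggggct

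The Acta1 promoter held 1 CArG box, from 73 to 64 bases before the start, and 1 MCAT element from 46 to 41 bases before it. The Nppb window held 1 MCAT and 1 GATA element and the Ankrd1 window 2 MCAT elements and 1 GATA element. The Nppa window held none of the motifs in these exact forms. Variants with other flanking letters were not searched, such as TGATAA, which is present in the Nppa and Nppb windows. Over all 32851 promoter windows of this length, 1.47% held a CArG box, 12.6% an MCAT and 9.99% a GATA element. Among the windows of all well-counted genes, 1.24%, 10.6% and 5.47% held them. Of these windows, those of raised genes held them in 1.56%, 12.8% and 5.07% of cases and those of lowered genes in 1.22%, 11.5% and 5.73%. A match is a description of these letters and not evidence of binding.

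Sarcomere genes moved in both directions. Of 20 members of the adult sarcomere, 4 rose and 7 fell, with a median of -0.016 that turned to 0.14 with total-count scaling (8 higher and 4 lower). The thin filament regulators fell: Tnni3, cardiac troponin I, went from 2629 ± 124 to 1821 ± 106 CPM (log2 fold change -0.53, SE 0.077, adjusted p = 3.0e-04), and Tnnt2, cardiac troponin T, from 5200 ± 282 to 3979 ± 208 CPM (log2 fold change -0.39, SE 0.060, adjusted p = 4.9e-04). Alpha-tropomyosin (Tpm1) fell to a lesser degree, by 0.28 on the log2 scale, and was no longer called with total-count scaling (adjusted p = 0.075). Mylk3, the kinase that phosphorylates the cardiac myosin light chain, fell from 421 ± 25.9 to 262 ± 30.2 CPM, the largest fall of the list at -0.68, and Nebl, a nebulin-like protein of the Z-disc, fell by 0.40 on the log2 scale. Among the raised members were Pdlim5, a Z-disc adaptor (0.44), Myom1, an M-band protein (0.23), and Mybpc3, cardiac myosin-binding protein C, which rose from 2389 ± 168 to 2761 ± 115 CPM with an adjusted p of 0.015. With the replicate number as a block, Mybpc3 was not called (adjusted p = 0.12). The cytoskeleton moved one way: 17 of 26 actin and microtubule genes rose and 0 fell (median 0.29). Tpm2, beta-tropomyosin, rose 1.79-fold to 20.95 CPM, and the tubulin Tubb2a rose 1.66-fold, although 49.6% of its 50-base stretches are shared, mostly with Tubb2b.

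The collagen list had the largest share of members called higher of any list, a share that rested on the choice of its members. All 20 collagen genes of the list that passed the expression filter, of 22 in it, rose, with log2 fold changes from 0.40 to 2.43 and a median of 1.06. With each mouse left out in turn, between 18 and 20 of them were called. The list was drawn up with earlier results known: over all 32 collagen chain genes that passed the filter, 21 rose, 1 fell and 10 were not called. Col1a1 and Col3a1, the main fibrillar collagens of scar, were at 37.6, 38.7, 41.8 and 41.1 CPM and at 58.1, 73.7, 79.2 and 71.1 CPM in sham hearts. After TAC they reached 112, 137, 91.7 and 97.0 CPM and 229, 231, 172 and 162 CPM, so that neither pair of groups overlapped, with log2 fold changes of 1.46 (SE 0.19, adjusted p = 1.3e-04) and 1.49 (SE 0.29, adjusted p = 0.0028). The largest change of the list was in Col8a1, a short-chain collagen of vessel walls and fibrotic tissue, at 15.99, 12.01, 12.3 and 11.8 CPM in sham and 64.7, 73.6, 66.5 and 76.5 CPM in TAC hearts (log2 fold change 2.43, SE 0.20, adjusted p = 4.7e-06). The collagen that fell was Col6a6, outside the list, from 8.29 ± 0.554 to 2.21 ± 0.773 CPM (log2 fold change -1.91, SE 0.18, adjusted p = 1.3e-05).

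Matricellular and glycoprotein genes rose in 22 of 33 cases and fell in 3 (median 1.02). Postn, which encodes periostin, a protein of activated fibroblasts, was held within a narrow range in sham hearts at 23.5, 23.9, 22.4 and 22.3 CPM and reached 134, 222, 154 and 161 CPM after TAC, a 7.29-fold rise (log2 fold change 2.87, SE 0.29, adjusted p = 2e-05). Cilp, a matrix protein known from cartilage and from fibrotic hearts, rose from 2.55, 3.17, 3.19 and 2.54 CPM to 25.3, 51.4, 30.9 and 33.2 CPM, 12.3-fold and with no overlap. Ltbp2, of the family named latent TGF-beta binding proteins, rose 9.62-fold from a mean of 1.20 CPM, and the thrombospondins Thbs4 and Thbs1 rose 6.48-fold and 5.33-fold. Thbs1 varied widely among TAC hearts, at 18.4, 49.7, 75.0 and 25.5 CPM, whereas Thbs4 stood at 17.9, 27.4, 14.0 and 14.8 CPM. Of the microfibril proteins, Mfap4 rose by 2.38 and Mfap5 by 2.03 on the log2 scale, the proteoglycan versican (Vcan) by 1.94, and fibronectin (Fn1) by 0.73, from 37.3 ± 4.40 to 61.7 ± 7.75 CPM. The 3 members that fell were Efemp1, a fibulin (-1.30), Thbs2 (-0.87, with overlapping groups) and the leucine-rich proteoglycan Ogn (-0.48).

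Genes that process and crosslink collagen rose in 11 of 21 cases with 0 lower. The lysyl oxidases, which crosslink collagen and elastin, led: Lox rose from 3.16 ± 0.231 to 9.46 ± 4.94 CPM, Loxl1 from 15.6 ± 1.55 to 36.8 ± 5.77 CPM and Loxl2 from 10.6 ± 1.39 to 30.1 ± 3.57 CPM, where 45.0% of the 50-base stretches of Loxl2 are shared with other annotated genes. TAC replicate 7 was the highest heart for Lox at 16.4 CPM. Of 19 proteases and their inhibitors, 5 rose and 1 fell. Among them the matrix metalloproteinases Mmp14 and Mmp2 rose by 0.66 and 0.53 on the log2 scale. In the TGF-beta family, the central signal of fibrosis, 11 of 30 genes rose and 1 fell. The ligand Tgfb2 rose from 9.94 ± 1.30 to 19.1 ± 5.00 CPM, and the follistatin-like proteins Fstl1 and Fstl3 rose 2.63-fold and 3.256-fold, with 46.2% of Fstl3 shared with the overlapping gene Prss57. The one gene that fell was Ltbp1 (log2 fold change -0.64, SE 0.069, adjusted p = 3.6e-05), a member of the same gene family as Ltbp2. Without TAC replicate 7, 7 genes of this family were called higher in place of 11.

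Markers of activated fibroblasts moved with the matrix genes. Of 11 tested, 7 rose and 0 fell (median 1.75), and their summed level was 84.7 to 266 CPM in sham hearts and 275 to 422 CPM in TAC hearts. Postn, Cilp, Ltbp2 and Thbs4 also stand in the matricellular list. The wide range of the sums in sham hearts came from Acta2, smooth muscle alpha-actin, which stood at 39.7, 49.1, 44.5 and 219 CPM in sham and 57.0, 57.0, 43.7 and 60.4 CPM in TAC hearts and was not called (log2 fold change -0.69, SE 0.42, adjusted p = 0.31). Acta2 was chosen after its values were seen. Markers of fibroblasts at large rose in 5 of 12 cases, among them both collagen I genes and Mfap5, and their summed level of 1130 to 1296 CPM in sham hearts and 1204 to 1545 CPM in TAC hearts overlapped between groups. Their mean log2 level relative to the sham mean did not overlap, at -0.062 to 0.059 in sham and 0.30 to 0.72 in TAC hearts. Pericyte and smooth muscle markers rose in 4 of 11 cases, with Cspg4 (NG2) at 1.07 and Pdgfrb at 0.55, and fell in 1. Endothelial markers rose in 3 of 13, with VE-cadherin (Cdh5) at 0.25 (adjusted p = 0.011), and macrophage markers in 2 of 15. These shares of 23.1% and 13.3% stand beside the 8.49% of all genes tested that were called higher. The mean log2 level of the macrophage markers did not overlap, at -0.21 to 0.093 in sham and 0.25 to 0.52 in TAC hearts, while their summed level did. For endothelial markers both measures overlapped between groups. With a mouse left out, between 2 and 4 endothelial and between 1 and 3 macrophage markers were called higher, and with total-count scaling 10 and 8. With the replicate number as a block, 0 endothelial markers were called and Cdh5 had an adjusted p of 0.066. Of the few markers that passed the filter, none was called for lymphocytes and neutrophils (3 tested), epicardium (4), adipocytes (1) or erythroid cells (6), and 0 of these had an unadjusted p under 0.05 in edgeR's test. With total-count scaling, 1 epicardial marker was called higher. Of 5 Schwann and neural markers 2 fell, with between 0 and 2 called lower when a mouse was left out and 1 higher and 0 lower with total-count scaling. Of 5 markers of atrial muscle, which the apex should lack, 2 rose, Nppa among them, and 2 fell (2 higher and 1 lower with total-count scaling), with the lipid transfer protein Stard10 at -0.96. Of 10 markers of thymus, lung and skeletal muscle, 2 passed the filter, and the one that rose was Acta1. The part of cell composition in the matrix changes was not tested.

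**Figure D3:**
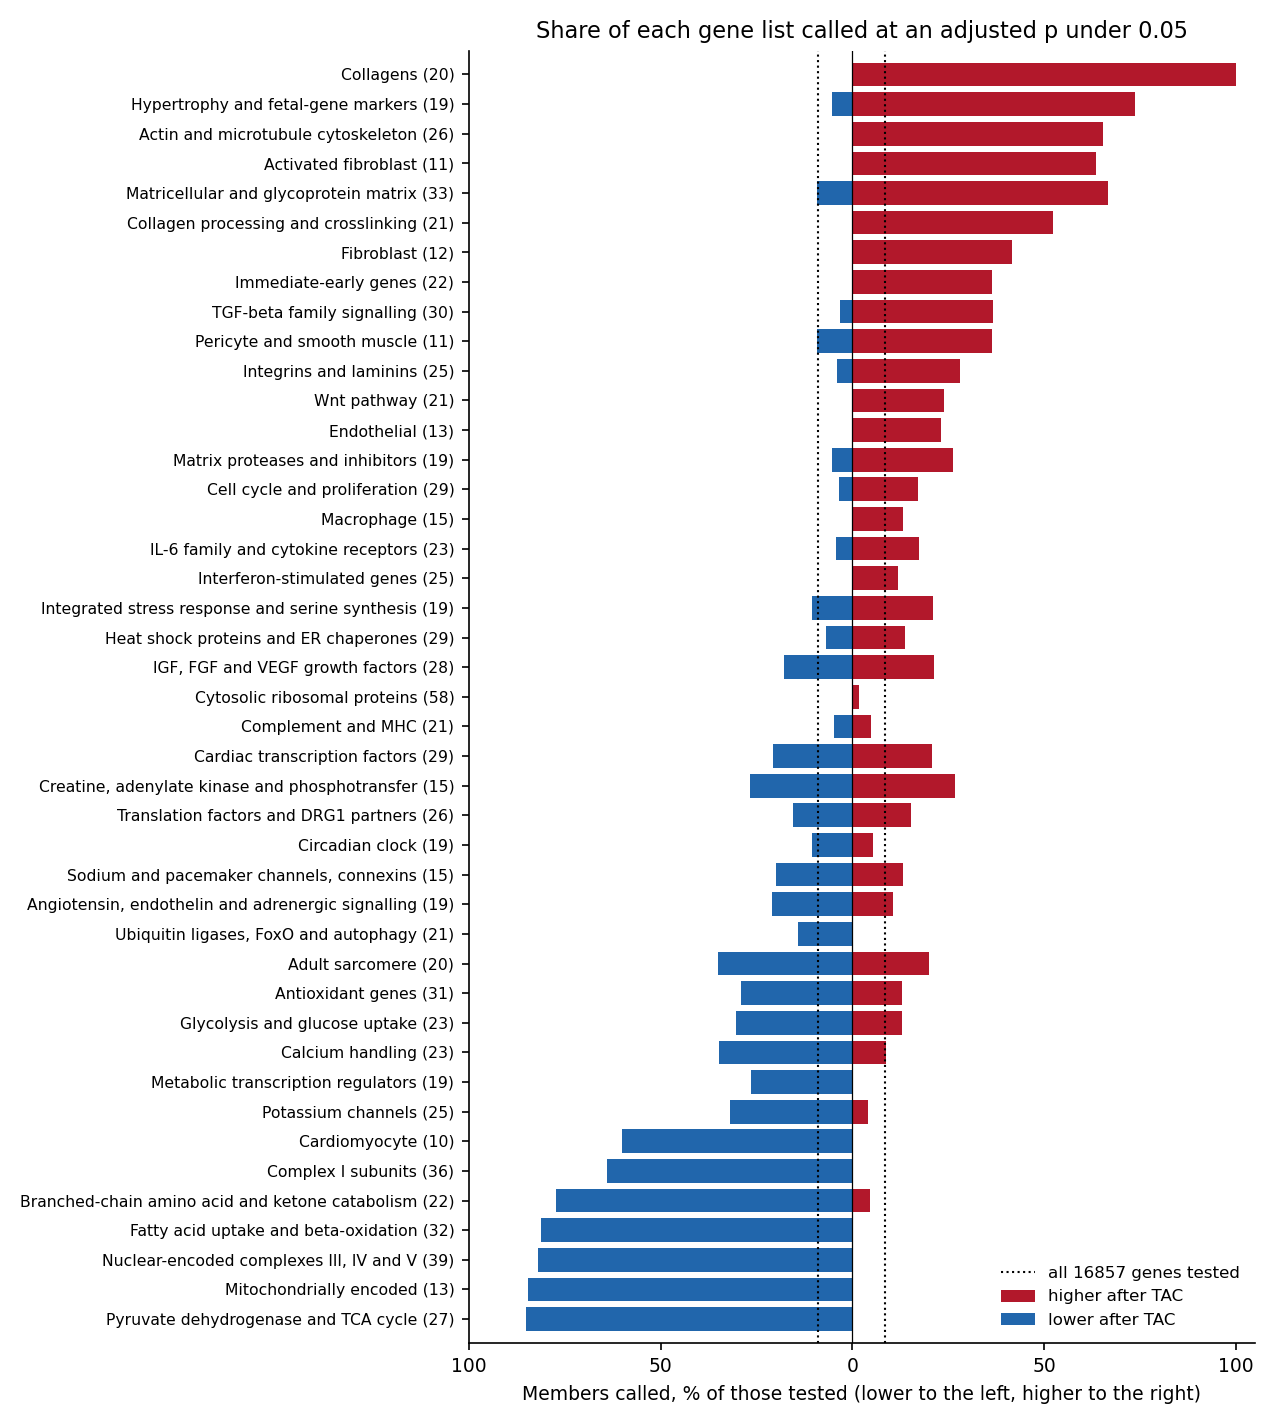
For each list of at least 10 tested genes (number tested in brackets), the bars give the percentage of members called higher (red, to the right) and lower (blue, to the left) after TAC, and dotted lines mark the 8.49% and 8.92% of all 16857 genes called in each direction. The collagen list, drawn up with earlier results known, reaches 100% to the right, and the lists of mitochondrial energy metabolism make up the lower end to the left.

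Calcium handling and potassium channel genes were called lower more often than higher. Of 23 calcium handling genes, 8 fell and 2 rose (median -0.16). Atp2a2, which encodes SERCA2, the pump that returns calcium to the sarcoplasmic reticulum, stood at 10440, 9220, 9169 and 10170 CPM in sham and 7394, 5743, 6930 and 6566 CPM in TAC hearts. No TAC heart reached the lowest sham heart, and the log2 fold change was -0.55 (SE 0.069, adjusted p = 9.7e-05). Its inhibitor phospholamban (Pln) fell from 4800 ± 309.5 to 3383 ± 193 CPM (log2 fold change -0.51, SE 0.054, adjusted p = 3.5e-05), although 56.2% of the 50-base stretches of Pln lie in other annotated genes. Also lower were Hrc, a calcium-binding protein of the reticulum (-0.60), the kinase gene Camk2a (-0.69) and Cacnb2, a subunit of the L-type calcium channel (-0.75). Casq1, the calsequestrin of skeletal muscle, rose from 6.76 ± 1.13 to 12.01 ± 2.98 CPM. With total-count scaling the list had a median of -0.00079 and calls of 6 higher and 6 lower.

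Potassium channel genes fell in 8 of 25 cases and rose in 1, with a median of -0.28 (-0.12 with total-count scaling). Kcnv2, a silent subunit that modifies voltage-gated channels, had 11.7, 10.7, 9.75 and 8.75 CPM in sham hearts and 3.52, 2.098, 3.15 and 2.61 CPM in TAC hearts, a 3.59-fold fall (log2 fold change -1.85, SE 0.18, adjusted p = 1.6e-05). Kcnj3, a subunit of the acetylcholine-gated channel, fell from 81.5, 67.6, 64.9 and 74.6 CPM to 49.4, 24.4, 31.4 and 21.5 CPM, with 29.3% of its 50-base stretches shared with an overlapping gene. Kcnd2, a channel of the transient outward current, fell by 0.78 on the log2 scale, and Abcc9, the sulfonylurea receptor of the ATP-sensitive channel and also a pericyte marker, fell from 364 ± 17.7 to 229 ± 20.7 CPM (log2 fold change -0.67, SE 0.062, adjusted p = 1.3e-05). The response was uneven: relative to the sham mean, the mean log2 level of the list was -0.058, -0.45, -0.29 and -0.49 in TAC replicates 1, 3, 4 and 7, so that replicate 1 lay inside the sham range on this measure. Its summed level of 965 CPM was below the 1094 to 1205 CPM of the sham hearts. Without that mouse, 13 of the channels were called lower. Among sodium and pacemaker channels and connexins, 2 rose and 3 fell of 15 (3 higher and 1 lower with total-count scaling), with Scn4b, a beta subunit of the sodium channel, at -0.76. Without TAC replicate 3, 1 of this list was called lower.

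Genes of mitochondrial energy metabolism fell together and by small folds. Of 32 genes of fatty acid uptake and beta-oxidation, 26 fell and 0 rose (median -0.37). Lpl, the lipoprotein lipase that frees fatty acids from circulating triglyceride, was at 5383, 4637, 5046 and 5118 CPM in sham and 3747, 3198, 4365 and 4021 CPM in TAC hearts (log2 fold change -0.40, SE 0.089, adjusted p = 0.0062). Acaa2, the thiolase that closes each round of beta-oxidation, was at 430.4, 471, 454 and 431 CPM and 274, 227, 285 and 258 CPM (log2 fold change -0.77, SE 0.081, adjusted p = 2.8e-05). In both genes all TAC hearts lay below all sham hearts. Slc27a1, a fatty acid transport protein, fell 1.83-fold. Of the pyruvate dehydrogenase complex and the tricarboxylic acid cycle, 23 of 27 genes fell and 0 rose (median -0.27), among them the succinate dehydrogenase subunits Sdha (log2 fold change -0.50, SE 0.058, adjusted p = 6.1e-05) and Sdhc (-0.51) and the isocitrate dehydrogenase subunit Idh3g (-0.46). Branched-chain amino acid and ketone catabolism followed, with 17 of 22 lower and 1 higher. Ppm1k, the phosphatase that switches on branched-chain ketoacid oxidation, fell from 75.4 ± 11.1 to 41.6 ± 10.8 CPM, and Ivd, isovaleryl-CoA dehydrogenase, from 361 ± 19.3 to 246 ± 28.0 CPM. The exception was Bdh1, the ketone-using enzyme beta-hydroxybutyrate dehydrogenase, which rose from 125 ± 31.5 to 184 ± 14.6 CPM (log2 fold change 0.56, SE 0.14, adjusted p = 0.012).

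The respiratory chain showed falls of about the same size on both genomes. Of nuclear-encoded complex I subunits 23 of 36 fell (median -0.23), and of complexes III, IV and V 32 of 39 (median -0.27), with 0 and 0 higher. Of the 13 protein-coding genes of the mitochondrial genome, 11 fell and 0 rose (median -0.27). Ndufs1 and Ndufv1, core subunits of complex I, fell by 0.43 and 0.41 on the log2 scale, Cox7a1, a muscle subunit of complex IV, by 0.59, and Atp5a1, the alpha subunit of ATP synthase, by 0.36. The mitochondrially encoded mt-Co1 went from 86650 ± 1652 to 70410 ± 1851 CPM and mt-Atp6 from 22820 ± 740.1 to 18430 ± 630.1 CPM, where 51.1% and 99.5% of their 50-base stretches also occur in other annotated genes. Spread between mice was small beside these shifts: relative to the sham mean, the mean log2 level of complexes III, IV and V was -0.28, -0.31, -0.16 and -0.26 in TAC replicates 1, 3, 4 and 7 and -0.043, 0.0062, 0.048 and -0.011 in the sham hearts. Without TAC replicate 3, 21 of these 39 genes were called in place of 32.

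These small falls were sensitive to the scale. With total-count scaling, the number of lower calls went from 26 to 18 for fatty acid oxidation, from 23 to 13 for the tricarboxylic acid cycle, from 23 to 9 for complex I, from 32 to 14 for complexes III to V and from 11 to 3 for the mitochondrial genome. The medians stayed below 0, at -0.21, -0.11, -0.068, -0.11 and -0.11, while the median of all genes stood at 0.16 on that scale. Cardiomyocyte markers, among which 6 of 10 fell and 0 rose (median -0.28), moved by the same order, and the part of cell composition in the metabolic changes was not tested.

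Sugar metabolism did not move as a block. Of 23 glycolysis and glucose uptake genes, 3 rose and 7 fell, and the median of -0.0041 became 0.16 with total-count scaling (7 higher and 4 lower). The isoforms of phosphofructokinase, the enzyme at the main control point of glycolysis, parted: the platelet form Pfkp rose from 40.3, 39.1, 41.2 and 44.6 CPM to 89.97, 115, 79.9 and 93.4 CPM (log2 fold change 1.19, SE 0.12, adjusted p = 1.6e-05) and the muscle form Pfkm fell from 643, 671, 637 and 662 CPM to 523, 469, 513 and 499 CPM (log2 fold change -0.38, SE 0.053, adjusted p = 2.1e-04). Pfkfb1, which sets the level of the activator of that enzyme, fell from 18.6 ± 0.712 to 6.46 ± 2.93 CPM, and Phkg1, the catalytic subunit of muscle phosphorylase kinase, fell from 20.2 ± 3.66 to 7.29 ± 3.25 CPM. TAC replicate 1 had the smallest fall in both, at 10.7 and 11.2 CPM. Creatine and phosphotransfer genes rose in 4 and fell in 4 of 15 cases (1 higher without TAC replicate 3, and 5 higher and 2 lower with total-count scaling), with the adenine nucleotide carrier Slc25a5 at 0.26, 33.8% of whose stretches are shared with other genes, and the outer membrane channel Vdac1 at -0.30. Metabolic transcription regulators fell in 5 of 19 cases and rose in 0 (2 higher and 2 lower with total-count scaling), with Klf15, a regulator of fuel use, going from 45.1 ± 2.33 to 27.5 ± 6.24 CPM and the fatty acid receptor Ppara from 34.6 ± 2.08 to 23.3 ± 4.92 CPM.

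The protein synthesis machinery showed little change at the RNA level. Of 58 cytosolic ribosomal protein genes, 1 was called, and the median of 0.000774 sat at that of all genes. The mean log2 level of the list relative to the sham mean lay between -0.0066 and 0.0027 for sham and between -0.021 and 0.024 for TAC hearts. With total-count scaling 27 of them were called higher, at a median of 0.16 beside 0.16 for all genes. The single call was Rpl3, at 39.4, 40.7, 38.7 and 39.6 CPM in sham and 64.3, 59.5, 49.0 and 59.1 CPM in TAC hearts (log2 fold change 0.55, SE 0.093, adjusted p = 9.3e-04), with 35.0% of its 50-base stretches shared, mostly with a pseudogene. Its muscle-specific paralog Rpl3l, chosen after its values were seen, went the other way, from 146, 130.1, 139 and 143 CPM to 92.6, 77.2, 99.9 and 79.6 CPM (log2 fold change -0.68, SE 0.10, adjusted p = 2.6e-04). Neither pair of groups overlapped. Among 26 translation factors and partners of the GTP-binding protein DRG1, 4 rose and 4 fell, against 15 higher and 0 lower with total-count scaling. The helicase gene Eif4a1 stood at 0.25, with 28.4% of its stretches shared with other genes. Drg1 itself rose slightly, from 23.8, 23.9, 22.2 and 22.1 CPM to 27.3, 24.6, 28.9 and 26.3 CPM (log2 fold change 0.22, SE 0.055, adjusted p = 0.013), and was not called when only the 8 AAV9-GFP mice were fitted (adjusted p = 0.0545). Heat shock proteins and ER chaperones rose in 4 and fell in 2 of 29 cases, with a median of -0.15 that became 0.010 with total-count scaling (6 higher and 0 lower). These shares, 13.8% higher and 6.90% lower, stand beside 8.49% and 8.92% of all genes tested. Of ubiquitin ligase, FoxO and autophagy genes 3 of 21 fell and 0 rose, which turned to 6 higher and 0 lower with total-count scaling. Of the integrated stress response and serine synthesis genes 4 rose and 2 fell of 19, with the amino acid transporter Slc7a5 at 0.81 and the folate enzyme Aldh1l2 at -1.02. Without sham replicate 1, 2 of the stress response genes were called higher. Without TAC replicate 3, 2 heat shock genes were called higher, 2 translation genes lower and 0 ubiquitin and FoxO genes lower.

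Transcription factors of the cardiomyocyte moved both ways, 6 higher and 6 lower of 29 (11 higher and 2 lower with total-count scaling), and without TAC replicate 3 these were 3 and 3. Tbx20 rose from 70.0, 74.9, 76.8 and 84.8 CPM to 101, 114, 99.2 and 104 CPM (log2 fold change 0.45, SE 0.080, adjusted p = 0.0014). Hopx, a homeodomain protein that restrains serum response factor, fell from 112, 141, 156 and 135 CPM to 78.1, 61.1, 82.4 and 90.1 CPM (log2 fold change -0.80, SE 0.12, adjusted p = 5.1e-04), with 24.0% of its stretches shared with the antisense gene Hopxos, and Mef2a fell by 0.46 on the log2 scale. Tead1, a factor that binds MCAT elements, rose from 169 ± 15.2 to 200.3 ± 8.58 CPM. Immediate-early genes, which respond to stimuli within minutes, rose in 8 of 22 cases and fell in 0. Jun rose from 37.4 ± 7.66 to 62.0 ± 6.93 CPM, but the sham hearts alone spanned -0.50 to 0.51 in the mean log2 level of the list, and leaving out sham replicate 1 left 3 calls. The clock gene Per2 fell by 0.55 and Nr1d2, a repressor of the clock, by 0.44 on the log2 scale, 2 of 19 clock genes in all, with 1 higher (3 higher and 2 lower with total-count scaling). These shares, 10.5% lower and 5.26% higher, were near the 8.92% and 8.49% of all genes tested.

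Antioxidant genes rose in 4 and fell in 9 of 31 cases, a balance that turned to 10 higher and 4 lower with total-count scaling. The metal-binding metallothionein Mt2, 45.8% of whose stretches are shared with other genes, rose from 16.6 ± 5.54 to 44.9 ± 19.4 CPM and Gpx1, glutathione peroxidase, rose from 24.9 ± 1.06 to 36.6 ± 4.26 CPM, while the glutathione S-transferases Gstm1 and Gstk1 fell from 119 ± 9.41 to 75.4 ± 3.80 CPM and from 45.0 ± 5.31 to 27.3 ± 2.08 CPM. In the cell cycle list, 5 rose and 1 fell of 29, of which 13 were well-counted. The median log2 fold change of the list was 0.58, and 0.43 to 0.74 with a mouse left out, while its mean log2 level overlapped between groups. Mcm6, a subunit of the replicative helicase, rose from 4.94 ± 0.644 to 7.31 ± 0.247 CPM. Cenpf, a centromere and microtubule-binding protein, ran the other way, at 28.9, 10.6, 12.5 and 19.2 CPM in sham and 8.66, 2.18, 4.59 and 3.52 CPM in TAC hearts (log2 fold change -1.91, SE 0.38, adjusted p = 0.0028). All TAC hearts were below all sham hearts, but the highest TAC heart, replicate 1 at 8.66 CPM, came close to the lowest sham heart at 10.6 CPM. The count of raised members was between 2 and 6 when a mouse was left out, with 2 without sham replicate 2 or 3 or TAC replicate 3.

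Signalling and immune lists changed in part. Of angiotensin, endothelin and adrenergic genes, 2 rose and 4 fell of 19, which turned to 5 higher and 1 lower with total-count scaling. Angiotensin-converting enzyme (Ace) rose from 55.5 ± 4.91 to 86.0 ± 14.2 CPM and the endothelin Edn3 from 3.83 ± 2.51 to 13.6 ± 3.23 CPM, while Pde4d, a phosphodiesterase that breaks down cyclic AMP, fell from 19.7 ± 1.65 to 12.1 ± 4.34 CPM (adjusted p = 0.016, or 0.0761 when only the 8 AAV9-GFP mice were fitted). Growth factor genes of the IGF, FGF and VEGF families rose in 6 and fell in 5 of 28 cases. Igfbp7, an insulin-like growth factor binding protein secreted by stressed hearts, rose from 69.8, 85.5, 85.2 and 91.5 CPM to 144, 181, 159 and 161 CPM (log2 fold change 0.96, SE 0.11, adjusted p = 4.6e-05), whereas Angpt1, the vessel-stabilizing angiopoietin, fell from 30.9, 41.1, 31.5 and 35.4 CPM to 21.1, 8.73, 10.4 and 7.48 CPM (log2 fold change -1.54, SE 0.28, adjusted p = 0.0018) and Fgf13, an intracellular modulator of sodium channels, fell by 0.80 on the log2 scale. Without TAC replicate 3, 2 of these growth factor genes were called higher in place of 6. Of the Wnt pathway 5 of 21 rose and 0 fell, with the receptor Fzd1 at 0.82, and of integrins and laminins 7 rose and 1 fell of 25, with Itga9 at 0.96. Interferon-stimulated genes rose in 3 of 25 cases (9 with total-count scaling), with Oasl2 and Rsad2 at 0.77 and 0.73. Genes of the IL-6 family and cytokine receptors rose in 4 and fell in 1 of 23, with Stat3 going from 104.7 ± 11.1 to 137 ± 8.28 CPM, and of complement and MHC genes 1 rose and 1 fell of 21 (5 higher and 1 lower with total-count scaling), where C3, the central complement component, fell from 162 ± 29.2 to 102 ± 4.63 CPM. Against the 8.49% of all genes called higher, the share was 12% for interferon-stimulated and 4.76% for complement and MHC genes, near the background. All 25 interferon-stimulated genes nevertheless had a fitted log2 fold change above 0, with a median of 0.30 against 0.0050 for all genes tested. Their mean log2 level relative to the sham mean was -0.23 to 0.11 in sham and 0.12 to 0.48 in TAC hearts, while their summed CPM overlapped between groups. For angiotensin, endothelin and adrenergic genes the share called higher was 10.5%, also near the background, while 21.1% were called lower against 8.92% of all genes. Counts this small also turned on single hearts: with 1 mouse left out at a time, between 2 and 5 cytokine genes were called higher (2 without sham replicate 3 or TAC replicate 3 or 7) and between 1 and 3 angiotensin, endothelin and adrenergic genes lower (1 without sham replicate 1 or TAC replicate 3).

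Several of the deepest falls were in genes outside these lists. Inmt, an indolethylamine methyltransferase, fell from 12.5, 11, 7.35 and 5.43 CPM to 2.23, 1.59, 2.63 and 1.13 CPM, 4.79-fold and the largest fall of any well-counted gene (log2 fold change -2.26, SE 0.42, adjusted p = 0.0018). Ces1d, a carboxylesterase that hydrolyses lipids, fell from 82.3, 58.4, 57.8 and 64.2 CPM to 21.9, 15.2, 23.6 and 22.4 CPM (log2 fold change -1.66, SE 0.24, adjusted p = 2.5e-04). Rbfox1, an RNA-binding splicing regulator of heart and brain, separated the TAC hearts into pairs, with 19.8, 4.45, 19.3 and 4.87 CPM in replicates 1, 3, 4 and 7 against 36.3, 39.1, 41.1 and 34.7 CPM in the sham hearts (log2 fold change -1.65, SE 0.40, adjusted p = 0.010). Lgals4, a galectin, fell from 49.8 ± 8.71 to 18.02 ± 5.31 CPM, Ccbe1, a secreted factor of lymphatic growth, from 13.9 ± 1.71 to 5.34 ± 2.32 CPM, and Amy1, an amylase with 33.3% of its stretches shared with other genes, mostly the overlapping Rnpc3, from 12.5 ± 1.69 to 4.88 ± 1.104 CPM.

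The response was present in each TAC heart and differed in size. The size in a heart is the slope of its log2 levels, relative to the sham mean, on the fitted log2 fold changes over the 2260 called well-counted genes, in percent, and is a description since these hearts also gave the fit. It was 83.2, 120, 87.0 and 107% in TAC replicates 1, 3, 4 and 7 and between -5.32% and 3.82% in the sham hearts. Of the raised genes, 91.3, 98.7, 94.4 and 98.5% were above all sham hearts in replicates 1, 3, 4 and 7, and of the lowered genes 92.7, 99.2, 95.9 and 98.5% were below all sham hearts. High shares are in part built in here, since the genes were called from these same hearts. Over all well-counted genes these shares were between 27.6% and 31.7% above and between 29.2% and 34.4% below.

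By programme, the order of the hearts varied, although replicate 3 was the most extreme TAC heart for many of the lists. The mean log2 level above sham was 1.11, 1.36, 1.06 and 1.498 for hypertrophy markers, 1.14, 1.27, 1.01 and 1.13 for collagens and 1.51, 2.06, 1.501 and 1.55 for activated fibroblast markers in TAC replicates 1, 3, 4 and 7. Replicate 3 was highest for collagens, for activated fibroblast markers and for the matricellular genes, and replicate 7 for the hypertrophy markers. The fall of fatty acid oxidation genes was deepest in replicate 3, at -0.32, -0.47, -0.33 and -0.29 in the same order. The tricarboxylic acid cycle, branched-chain amino acid, respiratory chain and mitochondrially encoded lists also fell furthest in replicate 3. Complex I fell least in replicate 4, at -0.27, -0.29, -0.12 and -0.23, the heart that also had the smallest rise in Acta1 and Ankrd1. For potassium channels and calcium handling genes, replicate 1 stayed within the sham range of this mean log2 level while replicates 3, 4 and 7 fell below it. By summed CPM, replicate 1 was also below all sham hearts. It stood at 965 against 1094 to 1205 CPM for potassium channels and at 15660 against 18700 to 20560 CPM for calcium handling.

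**Figure D4:**
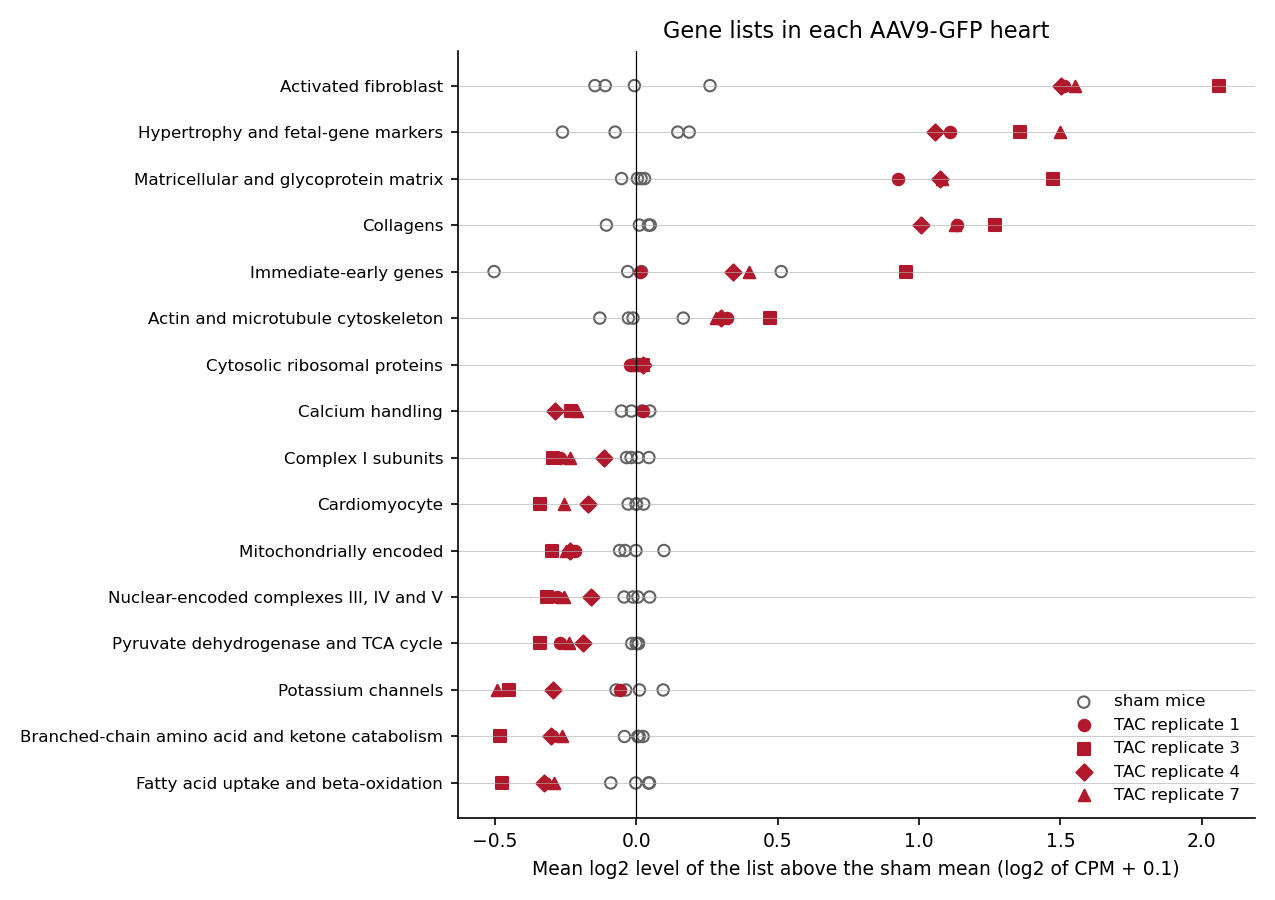
Each row is a gene list, each open circle a sham heart and each red symbol a TAC heart, placed by the mean log2 level (log2 of CPM + 0.1) of the members tested relative to the sham mean. TAC hearts are clear of sham hearts for 12 of the 16 lists shown; the exceptions are immediate-early genes, ribosomal proteins, potassium channels and calcium handling, where at least 1 TAC heart lies within the sham range.

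The difference in the TAC response between hearts with AAV9-GFP and with the Cardinal vector was tested as an interaction in the same fit. It was called for 2 of the 16857 genes, Bub1b and Gm15459, and for none of the genes described above, whose smallest adjusted p for the interaction was 0.30. At the spread between these mice, a failure to pass does not show that the responses were alike.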

How the data were processed

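RNA-Seq of the heart apex from 16 mice was used, of which 8 carried AAV9-GFP. Per the submitters' processing notes, reads were checked with FastQC and aligned with HISAT2 2.1.0, and edgeR 3.26.1 and GRCm38 are named. The values are raw read counts per gene, deposited by the authors as whole numbers in 1 table of 55573 genes. The counting program, its strand setting and its treatment of reads that fit several places are not given in the sources used here, so that a gene cannot be told apart from overlapping, antisense or near-identical genes where they share sequence. That share was computed as the percentage of all stretches of 50 bases in a gene's transcripts that occur in a transcript of another gene on either strand.

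Counts were analysed with edgeR 4.0.16 (R 4.3.3). Genes were filtered with filterByExpr, scaled with TMM factors and fitted with a quasi-likelihood model over the 4 groups of all 16 mice. P-values were adjusted over the 16857 genes tested with the Benjamini-Hochberg method. CPM are TMM-scaled, values are means ± SD over 4 mice, and fold changes are fitted values. Totals of 21525012 to 21904589 counts per mouse limited precision less than the spread between mice, with a common coefficient of variation of 0.128. No pair of replicates differed by as little as counting noise. Positions are from GENCODE M21. The procedure was tested on simulated counts. Alternatives were other scalings, filters, DESeq2 1.42.0, the 8 AAV9-GFP mice alone, a replicate block, an offset for GC content, a robust spread, removal of mitochondrial genes and leaving out each mouse. Total-count scaling was chosen later, with the data in view.

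The 50 gene lists and the named genes were chosen with earlier results of these data known. The genes named were textbook markers of the study, the 12 raised and 12 lowered well-counted genes with the largest log2 fold change and no overlap between mice, the 8 raised and 8 lowered with the largest difference in CPM, and up to 3 called genes per direction from each list. Predicted genes and pseudogenes were not named by this rule. Mhrt, Rpl3l, Acta2, Bub1b and Gm15459 were added after their values were seen. Some genes that meet the rule are not reported here.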

Additional observations from a re-analysis of the deposited data

Results flagged for a closer look

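In a group of 4 mice, a value was singled out when its gap to the nearest other mouse, divided by the whole range of the group, exceeded Dixon's critical value. Of 286 groups of values tested, 12 were singled out, and chance gives about 1 in 20. Sham replicate 1 stood apart as the lowest sham heart for Tpm1 (5900 CPM) and as the highest for Col8a1 (15.99 CPM), Ppm1k (91.8 CPM) and Lgals4 (62.76 CPM). Sham replicate 4 was the highest sham heart for Xirp2 (450.6 CPM), Edn3 (7.576 CPM) and Acta2 (219.2 CPM). TAC replicate 3 was the highest TAC heart for Ltbp2 (17.96 CPM) and for the mean log2 level of activated fibroblast markers (2.059 above the sham mean), and it was also the highest for Cdh5 (179.6 CPM). TAC replicate 7 was the lowest TAC heart for the amino acid transporter Slc7a5 (6.566 CPM), and sham replicate 2 stood apart for the mean log2 level of ribosomal protein genes (-0.006613), a deviation that is small on that scale.

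The response to TAC differed between vectors for 2 of 16857 genes by an interaction term in edgeR's quasi-likelihood test. Bub1b, a kinase of the spindle checkpoint, was at 0 in all 4 AAV9-GFP sham hearts and at 1.46, 1.43, 1.84 and 1.30 CPM in the TAC hearts. Its response in AAV9-GFP hearts exceeded that with the Cardinal vector by 8.007 on the log2 scale (adjusted p = 9.9e-04), a fitted value that depends on the prior count because the sham hearts were at 0. The pseudogene Gm15459, of whose exons 95.8% lie under other genes, had log2 fold changes of -0.54 in AAV9-GFP hearts and 2.66 with the Cardinal vector, a difference of -3.204 (adjusted p = 0.0098). Both were chosen after their values were seen.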

How the results depend on the processing

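The count of 2934 called genes (2260 well-counted) was 4901 (3785) with total-count scaling and 385 (128) when a change of at least 2-fold was also required. With 1 mouse left out it ranged from 1962 to 2982 (1548 to 2281 well-counted), lowest without TAC replicate 3 and highest without TAC replicate 1. In the other settings it stayed between 2091 and 2952. At an unadjusted p under 0.05, 5041 genes passed. Of the 2934 genes, 65.0% were also called without TAC replicate 3, 71.9% with total-count scaling, 92.4% by DESeq2 and 75.6% when only the 8 AAV9-GFP mice were fitted.

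Sham and TAC mice share the replicate numbers 1, 3 and 4. Deviations from the group mean of mice with the same number correlated across genes at 0.328, 0.153 and -0.0903. Pairs with different numbers ranged from -0.274 to 0.254. Whether a number marks a shared litter or surgery day is not given in the sources used here, and these few correlations cannot settle it. With the replicate block, 2091 genes (1652 well-counted) were called, and 63.8% of the 2934 were among them.

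Of 123 called genes named in the text, 113 were called in every setting, 122 with every mouse left out, 120 with total-count scaling and 115 with the block. Lost with the block in edgeR's test were Nppb (adjusted p = 0.060), Drg1 (0.055), Bdh1 (0.064) and Tead1 (0.064). Cdh5 (0.066), Pde4d (0.055), Mybpc3 (0.12) and Tnnt1 (0.17) were also lost with it. Of the named genes that were not called, Gm12295 turned to -0.017 under the replicate block and ranged from -0.22 without TAC replicate 1 to 0.16 with a mouse left out, with -0.10 without sham replicate 4, and Acta2 turned to 0.30 without sham replicate 4, with -0.93 at the other end. The cause was not tested.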
